A study of Mus musculus with 9 samples.

Results

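The genes described here are 42 genes of glucose use and of the hypoxia response in the mouse retina, out of 26683 genes in the deposited count table. They were picked by symbol from known biology, with earlier results of these data known. They are 2 glucose transporters, 16 glycolytic enzymes, 3 regulators of glycolysis and 2 lactate transporters. The others are 4 subunits and oxygen sensors of the hypoxia-inducible factor (HIF), and 15 other HIF targets. All 42 were found, and all 42 were among the 17362 genes that passed the filter on low counts. Bulk RNA from whole retina was sequenced in 9 libraries, 3 in each of 3 groups. Gel libraries are from retinas of mice made retinopathic with oxygen (oxygen-induced retinopathy, OIR) and injected into the vitreous with the hydrogel PCC1/PHCF, which releases procyanidin C1 (PCC1), a plant polyphenol. PBS libraries came from OIR mice injected with phosphate-buffered saline. Both injections were given at postnatal day 15. Normoxic libraries came from mice without OIR, and the labels name no injection for them. All retinas were collected at postnatal day 17. OIR is a model in which young mice are held in high oxygen, which stops retinal vessels from growing, and the return to room air then leaves the retina short of oxygen and is followed by abnormal new vessels. The sources used here do not give strain, sex or the number of animals per library. PBS thus differs from Normoxic by the oxygen exposure and perhaps by the injection itself, and no hydrogel without PCC1 was included, so the drug and its carrier cannot be told apart.

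HIF is a transcription factor made of an alpha subunit, encoded by Hif1a or Epas1, and a stable partner subunit. In the presence of oxygen the prolyl hydroxylases encoded by Egln1 and Egln3 mark the alpha subunit for destruction, so HIF activity is set mainly at the protein and not at the transcript level. When oxygen falls, HIF enters the nucleus and binds hypoxia response elements, whose core is ACGTG or GCGTG. Its targets include the enzymes that turn glucose into lactate, genes that slow the use of oxygen by mitochondria, and secreted signals to vessels. The retina makes much of its energy by glycolysis even when oxygen is plentiful, and photoreceptors are its heaviest users of glucose.

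The stretches of 250 bases before the transcription start are shown for the members that rose most in PBS over Normoxic and are in the promoter table (Adm, Egln3 and Pfkp) and for the enzymes Eno1 and Tpi1, which had the highest levels per length. They were read from RefSeq (build GRCm38.p6) at chr7:110627407-110627656 on the plus strand for Adm, chr12:54203875-54204124 on the minus strand for Egln3, chr13:6648772-6649021 on the minus strand for Pfkp, chr4:150236974-150237223 on the plus strand for Eno1 and chr6:124814159-124814408 on the minus strand for Tpi1. The expression files were made with build GRCm39 and hold no coordinates, so genes were matched by symbol. All are written 5′ to 3′ along the gene, and capitals mark ACGTG or GCGTG on this strand, or CACGT or CACGC where the core lies on the other strand.
Adm: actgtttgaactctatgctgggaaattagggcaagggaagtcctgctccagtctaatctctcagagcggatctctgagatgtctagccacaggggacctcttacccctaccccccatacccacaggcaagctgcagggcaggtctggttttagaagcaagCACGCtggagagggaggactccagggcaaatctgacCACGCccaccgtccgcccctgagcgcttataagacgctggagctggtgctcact
Egln3: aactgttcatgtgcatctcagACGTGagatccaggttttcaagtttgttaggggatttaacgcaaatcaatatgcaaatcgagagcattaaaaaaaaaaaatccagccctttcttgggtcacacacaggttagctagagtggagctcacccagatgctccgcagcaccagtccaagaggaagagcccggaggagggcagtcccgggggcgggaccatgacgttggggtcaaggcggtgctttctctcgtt
Pfkp: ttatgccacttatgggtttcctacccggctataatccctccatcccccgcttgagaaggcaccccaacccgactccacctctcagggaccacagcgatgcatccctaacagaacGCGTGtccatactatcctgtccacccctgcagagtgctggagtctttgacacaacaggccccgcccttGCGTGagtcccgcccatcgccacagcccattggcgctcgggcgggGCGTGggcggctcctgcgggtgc
Eno1: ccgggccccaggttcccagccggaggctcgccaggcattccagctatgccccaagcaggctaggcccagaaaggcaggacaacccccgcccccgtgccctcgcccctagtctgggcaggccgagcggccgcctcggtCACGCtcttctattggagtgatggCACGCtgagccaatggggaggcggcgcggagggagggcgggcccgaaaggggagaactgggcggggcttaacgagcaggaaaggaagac
Tpi1: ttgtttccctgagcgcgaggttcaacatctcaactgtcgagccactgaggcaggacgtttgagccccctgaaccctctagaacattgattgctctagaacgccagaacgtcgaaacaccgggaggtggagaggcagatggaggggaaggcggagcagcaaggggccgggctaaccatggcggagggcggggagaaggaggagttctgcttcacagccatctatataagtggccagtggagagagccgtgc

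Adm had 2 GCGTG matches, Egln3 had 1 ACGTG match, Pfkp had 3 GCGTG matches, and the Eno1 window, the most downstream of 3 listed starts, had 2 GCGTG matches. Tpi1 had 0 matches of either core in this window. Of the 42 members, 36 were in the promoter table, with 57 windows. Angptl4, Bnip3l, Epas1, Ndrg1, Ndufa4l2 and Slc2a3 were not matched. ACGTG, searched on both strands, was found in 43.9% of the 57 member windows, against 16.6% of all 32851 windows of this length. GCGTG, searched on both strands, was found in 52.6% of member windows, against 28.2% of all windows. Either core was found in 77.2% of member windows and 38.6% of all windows. ACGTG on one strand overlaps ACGTG on the other at CACGTG. Member windows also held more G and C, with a median of 62.8% against 52.4% over all windows, and the part of base composition in these shares was not tested. Windows of glycolytic enzymes held either core in 74.1% of cases (27 windows), and windows of other HIF targets did in 73.7% (19 windows). The share of windows with either core was thus close in the enzymes and the other targets. Each core alone was in a smaller share of enzyme windows (ACGTG 33.3% against 42.1%, GCGTG 48.1% against 57.9%). Some genes, such as Ak4 and Eno1, have several overlapping windows, so windows are not independent.

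Values are counts scaled to a library total of 1e+06 (CPM), adjusted between libraries with the TMM factors of edgeR (trimmed mean of M values). Levels of different genes are compared only in FPKM, the deposited level per unit of gene length and of library total. The library totals ran from 29324142 to 35663470 counts, so a gene at 1 CPM rests on about 30 counts. Changes were tested with the quasi-likelihood F test of edgeR across all 17362 genes, with p adjusted by the Benjamini-Hochberg method over all of them. A gene is said to have risen or fallen where this adjusted p is under 0.05. The labels do not say that replicates are separate animals, so p-values measure only the spread between these samples. Of the PBS libraries, PBS 3 stood apart on the first principal component, with 58.3 against 21.5 and 11.7 in PBS 1 and PBS 2. Ribosomal protein genes took 2.92% of its counts, against 1.19% to 1.81% in the other 8 libraries. Its counts also leaned to short genes, with a Spearman correlation across genes of -0.49 between gene length and its difference from the other PBS libraries. Leaving out PBS 3 kept the same 5 members called in PBS versus Normoxic. The same correlation with gene length was 0.32 for PBS 1 and 0.41 for PBS 2, and each value depends on the other PBS libraries. On the second principal component PBS 1 was at -42.8, PBS 2 at -15.9 and PBS 3 at 29.8. Rod markers summed to 46860 to 60470 CPM in Gel, 47410 to 68370 CPM in PBS and 51230 to 53070 CPM in Normoxic, and no marker gene of any retinal cell type was at 0 in any library.

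In retinas with OIR and PBS, 5 of the 42 genes rose over Normoxic retinas and 0 fell. The risen genes were Ndufa4l2, Adm, Angptl4, Egln3 and Pfkp, with fold changes from 14.0 for Ndufa4l2 to 1.52 for Pfkp. Among all tested genes 4.31% rose and 2.03% fell. The share of 5 of 42 is larger than the background of risen genes, and that of 0 of 42 is close to that of fallen genes. The members were chosen with earlier results of these data known, so the larger share is a description and not support. The CPM of 7 members lay wholly above Normoxic and those of 1 member, Pfkm, wholly below, where 15% and 14.3% of all genes did so. Their median log2 fold change was 0.21, against 0.01 over all tested genes, and 31 of 42 were above 0. Without Normoxic 1 or Normoxic 3 the risen members were 2, Ndufa4l2 and Adm, and without Normoxic 2 they were 3, with Angptl4. Without PBS 1 they were 4, and Hk2, Ak4 and Kdm3a then passed the test as lower.

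**Figure D1:**
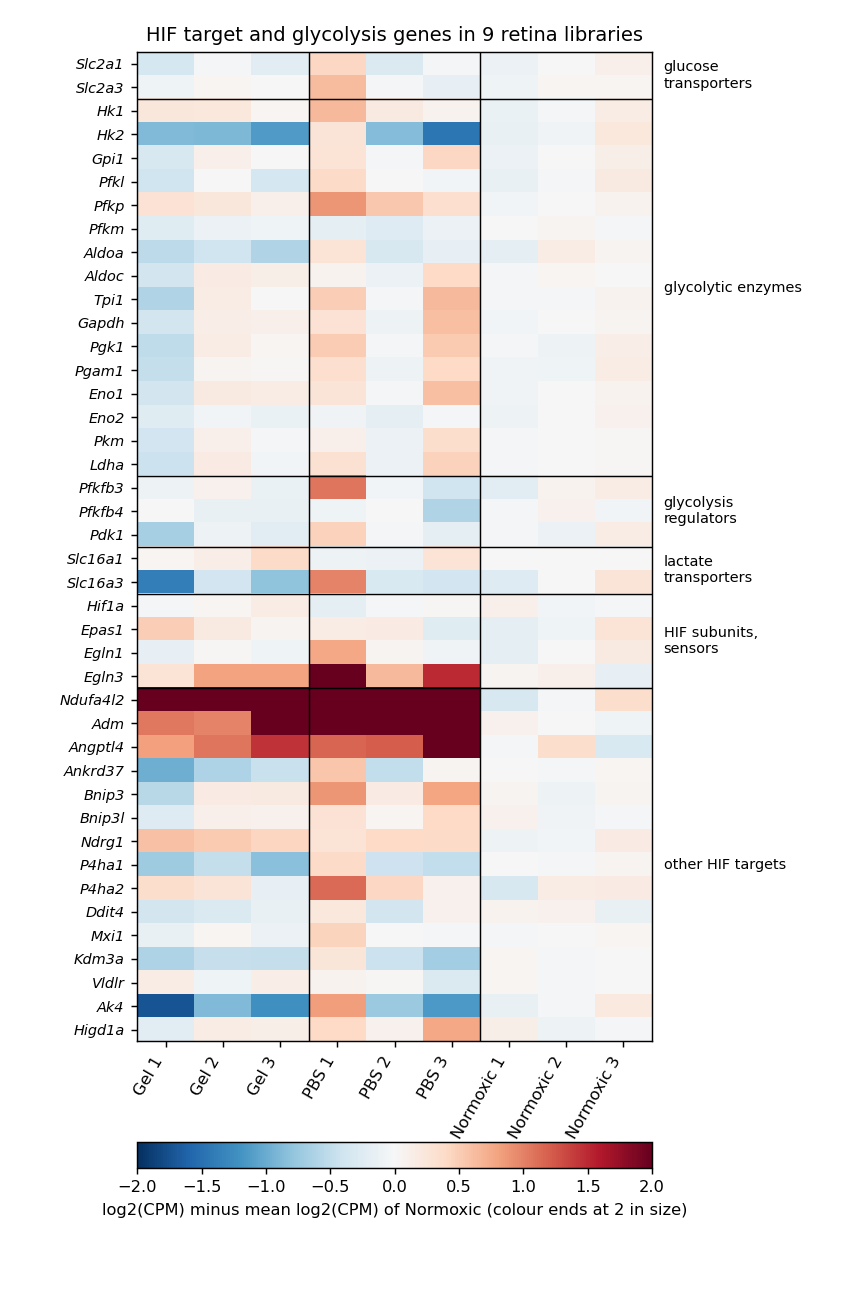
Colour gives the log2 CPM of each of the 42 genes (rows, grouped by role) in each library (columns, Gel, PBS, Normoxic), minus the mean of the 3 Normoxic libraries, with colours ending at 2 in size. Ndufa4l2, Adm, Angptl4, Egln3, Pfkp and Ndrg1 were above Normoxic in all 6 injected libraries. The enzymes in PBS 1 and PBS 3 were mostly above Normoxic while those in Gel 1 were mostly below.

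The largest change among the members was in Ndufa4l2 (Entrez 407790), a mitochondrial protein related to the NDUFA4 subunit that HIF induces and that restrains respiration. It had 105, 63.2 and 93.9 CPM in PBS, against 4.92, 5.96 and 7.85 CPM in Normoxic. Every PBS library was far above every Normoxic library. The log2 fold change was 3.81 ± 0.22 (SE, edgeR adjusted p = 4.53e-05), a 14.0-fold rise. The adjusted p stayed at or under 0.0015 over 16 alternative analyses.

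Adm (Entrez 11535) encodes adrenomedullin, a secreted peptide that widens vessels and supports endothelial cells. Its CPM in PBS were 20.7, 5.03 and 11.2, against 1.14, 1.08 and 1.02 in Normoxic. The groups were well apart, but the PBS libraries differed among themselves, with PBS 1 highest and PBS 2 lowest. On the log2 scale the difference was 3.51 ± 0.53 (SE, edgeR adjusted p = 0.00359). Angptl4 (Entrez 57875), a secreted inhibitor of lipoprotein lipase that also acts on vessel permeability, had 4.80, 4.96 and 10.1 CPM in PBS, against 2.08, 2.74 and 1.74 CPM in Normoxic. All PBS values were above all Normoxic values, with PBS 3 highest. The estimated log2 fold change was 1.60 ± 0.32 (SE, edgeR adjusted p = 0.0152), and it was no longer called without Normoxic 1 (0.0708) or Normoxic 3 (0.0759).

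Of the oxygen sensing machinery, only the sensor Egln3 (Entrez 112407) passed the test among the 4 members measured. It encodes an oxygen-dependent prolyl hydroxylase that is itself a HIF target and so feeds back on the pathway. It had 29.7, 5.85 and 10.5 CPM in PBS, against 3.88, 4.03 and 3.35 CPM in Normoxic. The groups did not overlap, but PBS 1 was far above the other PBS libraries. This gave a log2 fold change of 2.03 ± 0.48 (SE, edgeR adjusted p = 0.0296). Without PBS 1 it was 1.12, still past the test. The call was lost on leaving out any 1 Normoxic library (edgeR adjusted p from 0.104 to 0.125), with limma-voom (0.103) and when Gel libraries were left out of the fit (0.0616).

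The HIF alpha subunits themselves did not pass the test in any comparison. Hif1a (Entrez 15251) had 410, 430 and 464 CPM in Gel, 372, 411 and 429 CPM in PBS, and 450, 405 and 407 CPM in Normoxic. Epas1 (Entrez 13819), whose product acts largely in vessels and glia, had 269, 215 and 197 CPM in Gel, 212, 213 and 161 CPM in PBS, and 167, 180 and 230 CPM in Normoxic. The 3 groups overlapped for both genes. Per length, Hif1a made up 67.7% ± 4.85 of the summed FPKM of the pair in Gel, 69.3% ± 4.52 in PBS and 70.6% ± 4.35 in Normoxic (SD, n = 3). Egln1, the main oxygen sensor of most cells, was at 84.1 to 150 CPM in PBS and 77 to 99.7 CPM in Normoxic, with PBS 1 alone above the Normoxic range (log2 fold change 0.29 ± 0.20 SE, edgeR adjusted p = 0.411).

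The only glycolytic enzyme of 16 to pass the test was Pfkp (Entrez 56421), the platelet-type phosphofructokinase, which adds the second phosphate to the sugar at the committed step of glycolysis. It had 731, 572 and 502 CPM in PBS, against 379, 393 and 416 CPM in Normoxic. All PBS values were above all Normoxic values. The log2 fold change was 0.60 ± 0.14 (SE, edgeR adjusted p = 0.0263), a 1.52-fold rise. The call was lost without PBS 1 (0.0671), without any 1 Normoxic library (0.0802 to 0.125) and without the Gel libraries in the fit (0.0608).

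**Figure D2:**
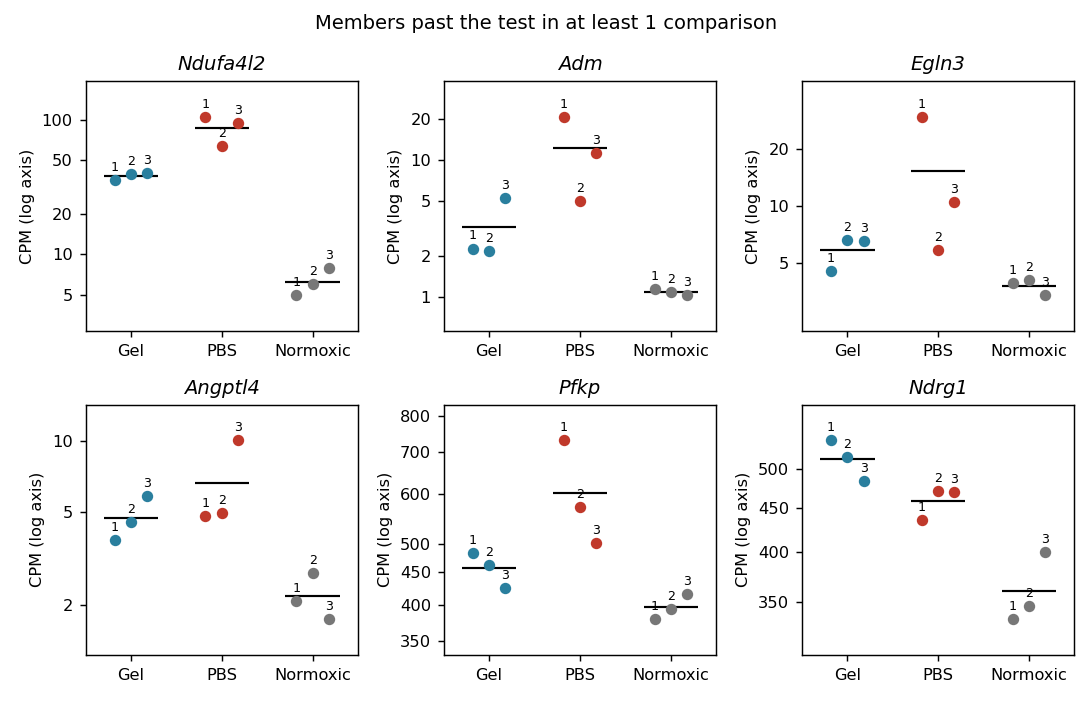
CPM (log axis) of the 6 members that passed the test in at least 1 comparison, by group; each point is a library with its replicate number and the line is the group mean. Ndufa4l2 separates all 3 groups (35.4 to 39.8 CPM in Gel, 63.2 to 105 in PBS, 4.92 to 7.85 in Normoxic), while Adm and Egln3 spread widely within PBS.

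The best-expressed enzymes per length were Eno1, Tpi1, Pkm and Gpi1, with mean FPKM over all libraries of 1700, 576, 509 and 395. Eno1 (Entrez 13806), the ubiquitous enolase, had 3780, 3110 and 4780 CPM in PBS, against 3020, 3140 and 3320 CPM in Normoxic. PBS 3 was highest and PBS 2 lay within the Normoxic range (log2 fold change 0.30 ± 0.18 SE, edgeR adjusted p = 0.365). Tpi1 (Entrez 21991), triosephosphate isomerase, had 1100, 761 and 1230 CPM in PBS, against 765, 769 and 824 CPM in Normoxic. PBS 2 was again below the other PBS libraries, and just below the lowest Normoxic library (0.39 ± 0.21 SE, edgeR adjusted p = 0.303). Pkm (Entrez 18746), pyruvate kinase, had 4180, 3570 and 4930 CPM in PBS, against 3780, 3900 and 3950 CPM in Normoxic. Gpi1 (Entrez 14751), glucose-6-phosphate isomerase, had 1320, 1070 and 1450 CPM in PBS, against 1010, 1090 and 1180 CPM in Normoxic. For both, PBS 1 and PBS 3 were above every Normoxic library and PBS 2 was not.

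Of the other enzymes, Pfkm lay wholly below Normoxic and the rest overlapped with it. Hk1, Pfkl, Aldoc, Gapdh, Pgk1, Pgam1 and Ldha had log2 fold changes of 0.11 to 0.35 in PBS over Normoxic, and Aldoa, Eno2 and Pfkm had -0.06, -0.10 and -0.19, none past the test. Hk2, the hexokinase isoform that HIF is known to induce, had the lowest fold change of the 16, -0.52 ± 0.33 (SE, edgeR adjusted p = 0.389). It had 212, 97.3 and 65.4 CPM in PBS, against 160, 169 and 206 CPM in Normoxic. PBS 1 was the highest of these libraries and the other PBS libraries were the lowest. Without PBS 1 the log2 fold change was -1.13 and passed the test (edgeR adjusted p = 0.01). Aldoa and Eno1 have near-identical retrocopies. The table lists 4174 counts over all libraries for Aldoa and 12 and 2 for its copies Aldoart1 and Aldoart2, and 986518 for Eno1 and 12958 for Eno1b. The sources used here do not say how shared reads were assigned, so the levels of these genes, and of Gapdh and other enzymes with many processed copies in the mouse genome, are uncertain.

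Glucose and lactate carriers and the regulators of glycolysis did not pass the test in PBS over Normoxic. Slc2a1, the glucose transporter of the blood-retina barrier, was at 264 to 430 CPM in PBS and 298 to 346 CPM in Normoxic. Slc2a3, the neuronal glucose transporter, was at 99 to 172 CPM in PBS and 105 to 114 CPM in Normoxic. Pfkfb3 and Pfkfb4, which set the level of the sugar phosphate that activates phosphofructokinase, had log2 fold changes of 0.34 and -0.20, and Pdk1, which holds pyruvate back from mitochondria, had 0.11. The lactate carriers Slc16a1 and Slc16a3 had 0.03 and 0.24. For Slc2a1, Slc2a3, Pfkfb3, Pdk1 and Slc16a3, PBS 1 was the highest of all 9 libraries.

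The other HIF targets ranged more widely than the enzymes. Of 15, 3 rose in PBS over Normoxic, with log2 fold changes from -0.24 for Kdm3a to 3.81 for Ndufa4l2. The 16 enzymes ranged from -0.52 for Hk2 to 0.60 for Pfkp with 1 risen. Of all tested genes 4.31% rose, and the share of 1 of 16 is near that. The median log2 fold change was 0.25 for the other targets and 0.22 for the enzymes, against 0.01 over all tested genes. The gap between these medians differed with the library left out. The median was 0.24 for the other targets and 0.12 for the enzymes without PBS 3. Without PBS 2 it was 0.32 for the other targets and 0.34 for the enzymes. An unadjusted p under 0.05 (edgeR) was found for 7 of the 15 other targets and 1 of the 16 enzymes, against 3711 of all 17362 genes. The CPM of 5 other targets and 1 enzyme lay wholly above Normoxic, where 15% of all genes did so. No test of the difference between the lists was made because the genes were chosen with results of these data known. Next to these were Bnip3, which promotes removal of mitochondria, at 147, 88.9 and 138 CPM in PBS and 82.9, 73.9 and 82.4 CPM in Normoxic, and Ndrg1, a stress-induced cytoplasmic protein. Both had PBS values wholly above Normoxic without passing the test (edgeR adjusted p = 0.112 and 0.0847), and both passed with DESeq2 (0.0493 and 0.0202). Higd1a and Bnip3l, both mitochondrial proteins, had log2 fold changes of 0.45 and 0.25, and P4ha2, a collagen prolyl hydroxylase, had 0.59. Mxi1, Ankrd37, Ddit4, Vldlr, Ak4 and P4ha1 lay between -0.11 and 0.15.

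**Figure D3:**
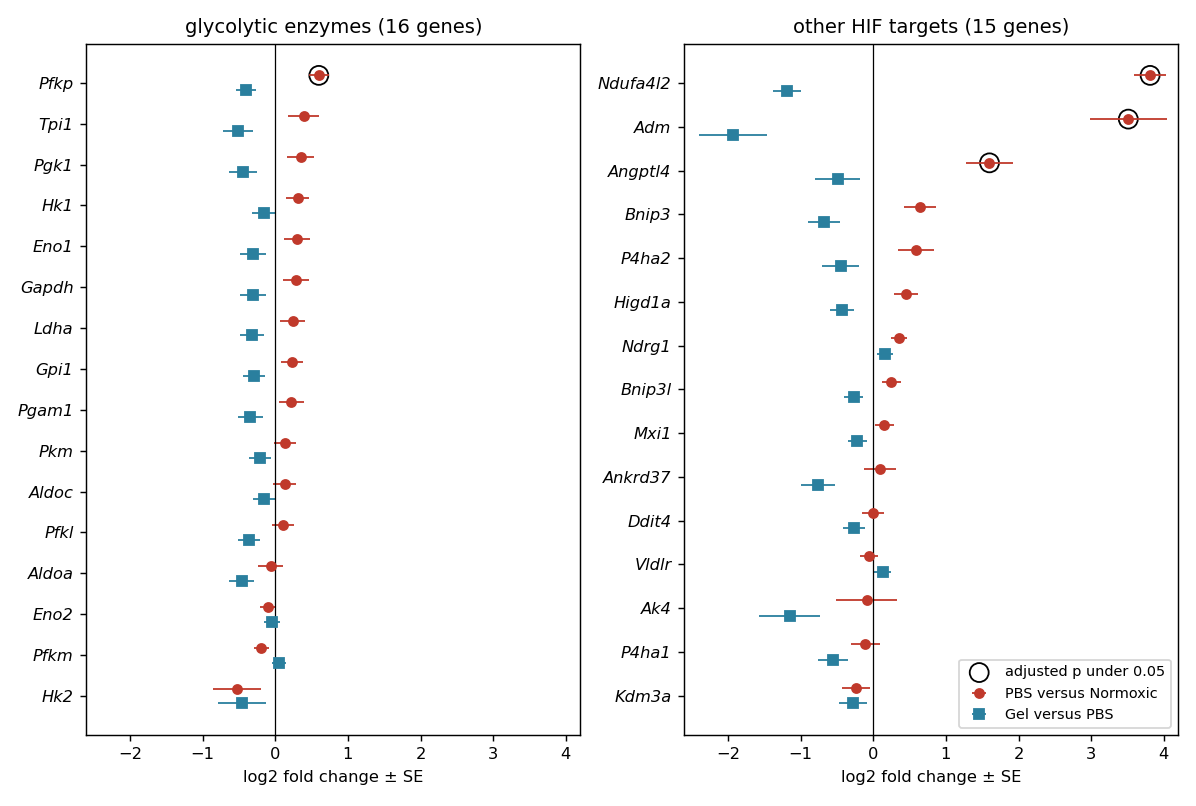
Log2 fold changes with SE (bars) of the 16 glycolytic enzymes (left) and 15 other HIF targets (right) in PBS versus Normoxic (circles) and Gel versus PBS (squares); rings mark an adjusted p under 0.05. Rings appear on Pfkp alone among the enzymes and on Ndufa4l2, Adm and Angptl4 among the other targets, all in PBS versus Normoxic.

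Some markers of vessel cells, astrocytes and immune cells also rose in PBS over Normoxic, and some markers of Muller glia and inner retinal neurons fell. Of all tested genes 4.31% rose and 2.03% fell. Markers of pericytes and smooth muscle, which are the cells known to express Ndufa4l2 strongly in many tissues, summed to 226 to 293 CPM in Gel, 315 to 468 CPM in PBS and 136 to 166 CPM in Normoxic, and 5 of 10 rose in PBS over Normoxic. Endothelial markers summed to 393 to 410 CPM in Gel, 335 to 436 CPM in PBS and 308 to 376 CPM in Normoxic, with 6 of 10 risen and 1 fallen. Astrocyte markers summed to 151 to 206 CPM in Gel, 287 to 460 CPM in PBS and 70.2 to 94.7 CPM in Normoxic, with 3 of 5 risen. Microglia and macrophage markers summed to 83.2 to 112 CPM in Gel, 107 to 167 CPM in PBS and 39.4 to 44.6 CPM in Normoxic, with 5 of 8 risen. Muller glia markers summed to 4777 to 6205 CPM in Gel, 4245 to 6137 CPM in PBS and 5131 to 5581 CPM in Normoxic, with 2 of 8 fallen (Aqp4 and Kcnj10) and 0 risen. Of the neuron markers 2 of 5 fell for bipolar cells, 3 of 4 for amacrine cells and 2 of 5 for ganglion cells. Of the 8 cone markers, 1 rose (Gnb3). Pigment epithelium markers summed to 122 to 201 CPM in Gel, 45.3 to 188 CPM in PBS, highest in PBS 3, and 19 to 80.1 CPM in Normoxic. Of these 4 markers 0 rose and 0 fell in PBS over Normoxic. In whole retina, a change in the number of cells of a type and a change in RNA per cell cannot be told apart, and the part of these cells in the members' changes was not tested. Red blood cell markers summed to 31.0 to 46.9 CPM in Gel, 45.2 to 206 CPM in PBS, highest in PBS 1 and PBS 3, and 46.3 to 50.5 CPM in Normoxic.

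The members varied more between PBS libraries than between Normoxic libraries. The highest PBS library was at least 2-fold above the lowest for 9 members, Hk2, Pfkfb3, Slc16a3, Egln3, Adm, Angptl4, Ankrd37, P4ha2 and Ak4. The same gap was found for 2 members in Gel, Slc16a3 and Adm, and for 0 in Normoxic. The median coefficient of variation over the 42 members was 13.5% in Gel, 22.4% in PBS and 6.91% in Normoxic, against 14.0%, 18.5% and 8.79% over all tested genes in the same groups.

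Which PBS library was highest differed between the lists. Of the 15 other HIF targets, 11 were highest in PBS 1. Of the 16 enzymes, 11 were highest in PBS 3 and the other 5 in PBS 1. Over all tested genes PBS 1 was highest for 31.1% and PBS 3 for 41.4%. PBS 3 leaned to short genes against the other PBS libraries. Of the 6 enzymes with a gene length under 2100 bases (a limit chosen after the values were seen), 5 were highest there. Of the longer enzymes, Gpi1, Pfkm, Aldoc, Eno2, Pkm and Ldha were also highest in PBS 3, and Hk1, Hk2, Pfkl and Pfkp in PBS 1. The part of this leaning in the enzymes' values was not tested gene by gene. The median gene length was 3053 bases for the enzymes, 2345 bases for the other targets and 3650 bases for all tested genes. With the trend along gene length removed from each library, the median log2 fold change in PBS over Normoxic was 0.11 for the enzymes and 0.23 for the other targets, and the same 5 members were called.

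**Figure D4:**
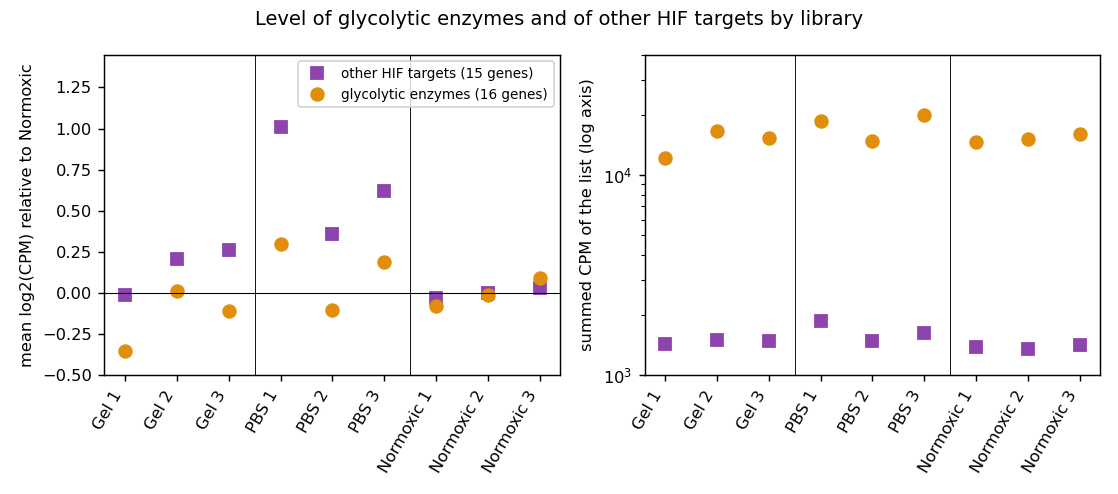
Left, the mean over genes of log2 CPM relative to the Normoxic mean, and right, the summed CPM (log axis), for the 15 other HIF targets (squares) and the 16 glycolytic enzymes (circles) in each library. Other HIF targets had means of -0.01, 0.21 and 0.26 in Gel 1 to 3 and 1.01, 0.36 and 0.62 in PBS 1 to 3, whereas the enzymes had -0.35, 0.01 and -0.11 in Gel and 0.30, -0.10 and 0.19 in PBS.

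The sum of the 16 enzymes was 12210, 16600 and 15380 CPM in Gel, 18570, 14730 and 20020 CPM in PBS, and 14650, 15220 and 16060 CPM in Normoxic. Gel 1 was below every other library, PBS 2 lay within the Normoxic range, and the other PBS libraries lay above it.

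In Gel retinas, compared with PBS retinas, 0 of the 42 members passed the test in either direction, as did 0 of all 17362 genes (0% higher and 0% lower by edgeR, with 961 genes at an unadjusted p under 0.05). DESeq2 called 61 genes and limma-voom called 0. Among the members, 15 had an unadjusted p under 0.05, and 35 of 42 log2 fold changes were below 0. The median was -0.33 over the members and -0.01 over all tested genes. It was -0.32 for the enzymes and -0.45 for the other HIF targets. The CPM of 3 members, Ndufa4l2, Pfkp and Aldoa, lay wholly below PBS and those of 1 member, Ndrg1, wholly above, where 4.93% and 3.67% of all genes did so. This comparison shares the PBS libraries with the comparison above, so the values of the comparisons are given side by side and do not support each other.

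Ndufa4l2 had 35.4, 39.3 and 39.8 CPM in Gel, against 105, 63.2 and 93.9 CPM in PBS. All Gel values were close to each other and below all PBS values. On the log2 scale the difference was -1.19 ± 0.19 (SE, edgeR adjusted p = 0.189). It passed with DESeq2 (6e-05), with no filter on low counts (edgeR, 0.00567) and without PBS 2 (0.0171), and the adjusted p ranged up to 0.756 over the alternatives. Adm had 2.25, 2.14 and 5.30 CPM in Gel, against 20.7, 5.03 and 11.2 CPM in PBS. Gel 3 was just above PBS 2, so the groups overlapped. The estimated log2 fold change was -1.93 ± 0.47 (SE, edgeR adjusted p = 0.576, and 0.0132 with DESeq2).

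Egln3 had 4.53, 6.56 and 6.51 CPM in Gel, against 29.7, 5.85 and 10.5 CPM in PBS. PBS 2 lay within the Gel range (log2 fold change -1.38 ± 0.46 SE, edgeR adjusted p = 0.687). Slc16a3, the lactate exporter of glycolytic cells, had 33.1, 66.4 and 49.2 CPM in Gel, against 172, 70 and 65.9 CPM in PBS. Gel 2 was just above PBS 3, and PBS 1 alone was far from the rest (-1.05 ± 0.35 SE, edgeR adjusted p = 0.704). Pfkp had 484, 463 and 425 CPM in Gel, against 731, 572 and 502 CPM in PBS, without overlap (-0.40 ± 0.14 SE, edgeR adjusted p = 0.749).

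Among the enzymes, 15 of 16 log2 fold changes in Gel over PBS were below 0, from -0.51 for Tpi1 to -0.04 for Eno2, and Pfkm had 0.05. Gel 1 was the lowest Gel library for 12 of the 16 enzymes and for 30 of the 42 members (71.4%), against 41.7% of all tested genes. Against the other Gel libraries, Gel 1 leaned to long genes (Spearman correlation 0.32), and Gel 2 and Gel 3 leaned to short ones (-0.29 and -0.20). Each value depends on the other Gel libraries, so the 3 are not independent. Across all tested genes the log2 fold change of Gel over PBS correlated with gene length at 0.32 (Spearman). With the length trend removed the medians were -0.24 for the enzymes and -0.36 for the other targets.

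In Gel retinas, compared with Normoxic retinas, 2 members rose and 0 fell, where 1.12% and 0.288% of all tested genes did so. The risen members were Ndufa4l2, with a log2 fold change of 2.61 ± 0.21 (SE, edgeR adjusted p = 0.00041), and Ndrg1. Ndufa4l2 kept this call in all 16 alternatives, with every Gel library several-fold above every Normoxic library. Ndrg1 (Entrez 17988) had 540, 517 and 484 CPM in Gel, 436, 472 and 470 CPM in PBS, and 334, 346 and 400 CPM in Normoxic. The 3 groups did not overlap, and Gel was highest. The log2 fold change of Gel over Normoxic was 0.51 ± 0.11 (SE, edgeR adjusted p = 0.0456), and leaving out any 1 Gel library (0.0953 to 0.186), any 1 Normoxic library (0.0809 to 0.256), PBS 1 (0.0501) or PBS 2 (0.0709) ended the call. The CPM of 7 members lay wholly above Normoxic and those of 9 wholly below, where 11.9% and 12.1% of all genes did so. The 7 were Ndufa4l2, Adm, Angptl4, Ndrg1, Egln3, Pfkp and Slc16a1.

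The 9 members whose Gel values lay wholly below Normoxic were Hk2, Pfkm, Aldoa, Slc16a3, Ankrd37, P4ha1, Ddit4, Kdm3a and Ak4. Hk2 had 96.5, 94.9 and 80.5 CPM in Gel, against 160, 169 and 206 CPM in Normoxic (log2 fold change -0.98 ± 0.33 SE, edgeR adjusted p = 0.202). Ak4, a mitochondrial adenylate kinase, had 10.8, 19.2 and 15.2 CPM in Gel, against 32.1, 34.6 and 40.6 CPM in Normoxic (-1.24 ± 0.43 SE, edgeR adjusted p = 0.209). The highest Gel library was 1.2 times the lowest for Hk2 and 1.77 times for Ak4, while the PBS libraries spread from 65.4 to 212 CPM for Hk2 and from 16.1 to 63.5 CPM for Ak4. P4ha1, a collagen prolyl hydroxylase, and Kdm3a, a histone demethylase, had -0.67 and -0.52. In a fit without the PBS libraries, Hk2, Ak4, P4ha1, Kdm3a and Ankrd37 passed the test as lower in Gel (edgeR adjusted p = 0.00158, 0.00401, 0.00706, 0.0106 and 0.0224), and without PBS 1 the first 4 did (0.0149 to 0.0415). The fit without the PBS libraries also called Ndufa4l2, Ndrg1, Adm and Angptl4 higher in Gel. With all 9 libraries, Adm had 1.58 ± 0.52 (SE, edgeR adjusted p = 0.191) and Angptl4 had 1.11 ± 0.32 (SE, edgeR adjusted p = 0.141). Some members thus had Gel CPM wholly above Normoxic and others wholly below, as did 11.9% and 12.1% of all genes. The fit of all 9 libraries called 0 members lower.

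Shares within gene families were compared between the groups. Hk2 made up 7.33%, 7.32% and 7.04% of the summed FPKM of Hk1 and Hk2 in Gel, 11.5%, 7.65% and 5.68% in PBS, and 14.5%, 14.1% and 15.1% in Normoxic. All 6 injected libraries were below all Normoxic libraries. Pfkp made up 37.8% ± 3.04 of the summed FPKM of the 3 phosphofructokinases in Gel, 40.6% ± 2.45 in PBS and 31.2% ± 0.352 in Normoxic (SD, n = 3). Slc16a3 made up 19.2% ± 5.28 of the pair Slc16a1 and Slc16a3 in Gel, 34.3% ± 14.2 in PBS and 32.2% ± 4.05 in Normoxic (SD, n = 3). In the enolases and glucose transporters, the mean share of Eno2 in Eno1 and Eno2 was 12.5% in Gel, 10.7% in PBS and 13.5% in Normoxic, and that of Slc2a3 in Slc2a1 and Slc2a3 was 15%, 14.4% and 13.3% in the same groups. The shares are descriptions, and with 3 libraries against 3 an exact permutation test cannot give a two-sided p below 0.1.

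**Figure D5:**
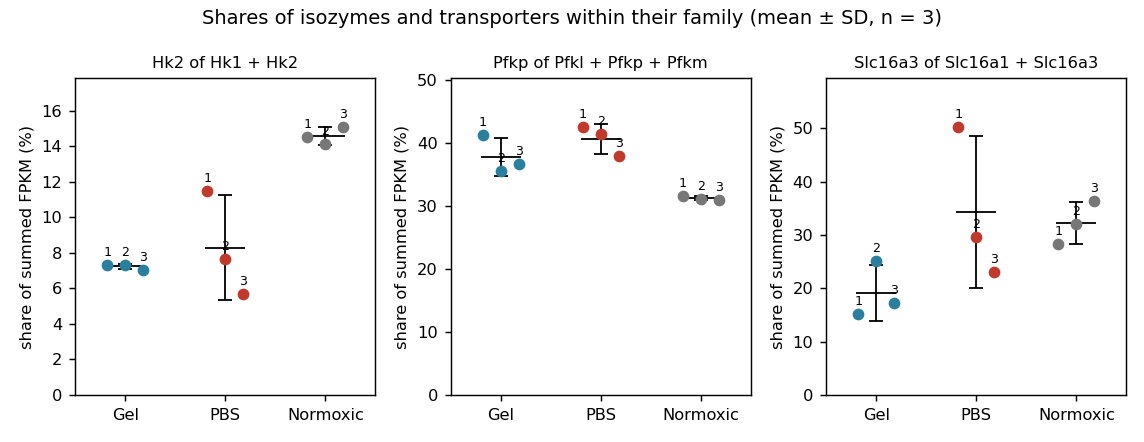
Share (%) of the summed FPKM of its family taken by Hk2, Pfkp and Slc16a3 in each library (points with replicate numbers), with the group mean and SD (n = 3). The Hk2 share was 7.04% to 7.33% in Gel and 5.68% to 11.5% in PBS, below the 14.1% to 15.1% in Normoxic, and the Pfkp share was lowest in Normoxic.

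Genes of the same pathways that are not among the 42 were taken from lists of known HIF and glycolysis genes. These lists, too, were chosen with earlier results of these data known. Of 26 further HIF pathway and target genes, 9 rose in PBS over Normoxic and 0 fell, with a median log2 fold change of 0.64. Over all tested genes 4.31% rose and 2.03% fell, with a median of 0.01. Hmox1, the stress-induced heme oxygenase, had 85.6, 21.2 and 37.5 CPM in PBS and 2.58, 2.27 and 2.76 CPM in Normoxic (edgeR adjusted p = 0.000518). It was several-fold above Normoxic in every PBS library. Plod1, a collagen lysyl hydroxylase, had 64.7, 54.3 and 64.6 CPM in PBS and 34.3, 35.6 and 37.8 CPM in Normoxic (edgeR adjusted p = 0.00225). Car9, a carbonic anhydrase widely used as a hypoxia marker, rose at a level under 1 CPM in every library (edgeR adjusted p = 0.00691). In Gel over PBS 0 of the 26 passed the test, with Hmox1 at 7.39, 8.16 and 7.63 CPM in Gel (log2 fold change -2.64 ± 0.40 SE, edgeR adjusted p = 0.166). In Gel over Normoxic 2 rose, including Plod1 (log2 fold change 0.50 ± 0.10 SE, edgeR adjusted p = 0.0444), where 1.12% of all tested genes rose.

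Vegfa (Entrez 22339), the HIF target that drives vessel growth in this model, had 335, 254 and 263 CPM in Gel, 655, 368 and 300 CPM in PBS, and 221, 262 and 282 CPM in Normoxic. Every PBS value was above every Normoxic value, by little in PBS 3, and PBS 1 was far above the rest. The log2 fold change of PBS over Normoxic was 0.79 ± 0.25 (SE, edgeR adjusted p = 0.0919) and that of Gel over PBS was -0.64 ± 0.25 (SE, edgeR adjusted p = 0.821).

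Of 24 further genes of glycolysis and pyruvate use that passed the filter, 3 rose and 1 fell in PBS over Normoxic. The shares over all tested genes were 4.31% and 2.03%. Txnip, which limits glucose uptake, had 35.8, 49.6 and 77.2 CPM in PBS and 13, 16.3 and 12.5 CPM in Normoxic (log2 fold change 1.96 ± 0.24 SE, edgeR adjusted p = 0.00117). It stayed at 55.4, 53.1 and 61.9 CPM in Gel and was called over Normoxic there too (edgeR adjusted p = 0.00305). Pdk4, a pyruvate dehydrogenase kinase, also rose in both comparisons, at under 2 CPM in every library. Hk3, a hexokinase of blood cells, rose in PBS at 0.562 to 1.37 CPM, and Slc16a7, a monocarboxylate carrier of neurons, fell by 0.71 on the log2 scale (edgeR adjusted p = 0.039). Of 14 oxidative phosphorylation genes 0 passed the test in any comparison. Their sum was 2644, 3710 and 3525 CPM in Gel, 2830, 2842 and 4951 CPM in PBS, and 2969 to 3016 CPM in Normoxic. PBS 3, Gel 2 and Gel 3 were above the Normoxic range. Each of them leaned to short genes against the other libraries of its own group, which does not measure a leaning against Normoxic. The part of gene length in these sums was not tested. All 14 had log2 fold changes above 0 in PBS over Normoxic, with a median of 0.40, against 0.21 for the 42 members. Their mean log2 CPM relative to Normoxic was -0.09, -0.03 and 0.98 in PBS 1 to 3, so of the PBS libraries PBS 3 alone was above Normoxic.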

How the data were processed

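RNA from 9 mouse retina libraries (3 per group) was analysed from the deposited table of whole-number counts per gene. The tools RSEM 1.3.1, Bowtie2 and DESeq2 1.4.5 and the build GRCm39 are listed, without roles, per the submitters' processing notes. The sources used here do not say whether the counts are rounded RSEM estimates or whether strand was used. The authors also deposited FPKM. Counts over the library's sum, divided by 1 fixed length for a gene, returned these FPKM (relative spread at most 2.9e-10), so they served for gene length and for levels between genes. 

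In R 4.3.3, genes were filtered with filterByExpr of edgeR 4.0.16 (minimum count 10; 17362 of 26683 genes kept), scaled by TMM and tested with the quasi-likelihood F test of edgeR in a single fit of the 9 libraries (term: group), with Benjamini-Hochberg adjustment over all kept genes and a threshold of 0.05. The SE was taken as the size of a log2 fold change over the root of its F value. CPM are counts per 1e+06 of the TMM-scaled library total. The test was tried on simulated counts. No 2 replicates agreed within sampling noise, with a chi-square per degree of freedom of 7.68 to 117. Alternatives were relative log expression size factors, no filter, DESeq2 1.42.0, limma-voom (limma 3.58.1), only the 2 groups compared, a replicate block, removal of a loess trend along gene length (span 0.5), and leaving out each library.

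The members, the lists of further genes and markers, and the rule for named genes were chosen with earlier results of these data known. The rule names every member, gives all libraries for called members, Hif1a, Epas1, the 4 best-expressed enzymes and Vegfa, and allows at most 4 called genes of each further list. Library values of other members (Hk2, Slc16a3, Ak4, Bnip3) were added after they were seen. A gene of the further HIF list is not reported here by name.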

Additional observations from a re-analysis of the deposited data

How the results depend on the processing

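Ndufa4l2 and Adm kept their calls in PBS versus Normoxic, and Ndufa4l2 in Gel versus Normoxic, in all 16 alternatives, and no called value changed sign. The median log2 fold change of the enzymes ranged over the alternatives from 0.11 to 0.34 in PBS versus Normoxic, from -0.43 to -0.18 in Gel versus PBS and from -0.19 to 0.05 in Gel versus Normoxic. That of the other HIF targets ranged from 0.21 to 0.32, from -0.58 to -0.24 and from -0.07 to 0.05. In PBS versus Normoxic, 1101 genes were called, 1936 with DESeq2 and 463 to 1180 on leaving out 1 library, with 463 to 497 where that was a Normoxic library. Members called higher were 5, with 7 with DESeq2 (Bnip3 and Ndrg1 added), 4 with limma-voom, 3 in a fit of only the 2 groups and 2 to 6 on leaving out 1 library, and members called lower were 0 to 3, the 3 (Hk2, Ak4, Kdm3a) without PBS 1. In Gel versus PBS, the genes called were 0, with 24 without the filter, 61 with DESeq2, 3 with the length trend removed and 0 to 12 on leaving out 1 library, the 12 without PBS 2. Members called lower were 1 without the filter, 2 with DESeq2 and 0 to 1 on leaving out 1 library. In Gel versus Normoxic, 245 genes were called, with 389 without the filter, 845 with DESeq2, 657 in a fit of only the 2 groups, 419 with the length trend removed and 46 to 738 on leaving out 1 library, with 738 without PBS 3, 46, 46 and 99 without Normoxic 1, 2 and 3, and 95 and 99 without Gel 2 and Gel 3. Members called higher were 4 with DESeq2, 4 in a fit of only the 2 groups and 1 to 3 on leaving out 1 library, and members called lower were 5 in a fit of only the 2 groups and 0 to 4 on leaving out 1 library. The cause of these shifts was not tested. The share of calls that were higher was 67.9% in PBS versus Normoxic and 55.3% with the length trend removed. In Gel versus Normoxic it was 79.6%, against 66.6% with DESeq2 and 66.4% in a fit of only the 2 groups. Deviations of same-numbered libraries from their group means correlated at 0.33, -0.21 and 0.36 between Gel and PBS. Between the injected groups and Normoxic they correlated at -0.10 to -0.04. So few values cannot decide whether the replicate numbers pair the samples. With the replicate block, 1 member was called higher in Gel versus Normoxic in place of 2 (Ndrg1, adjusted p = 0.0778), and the other counts of members did not change. Adm rests on 31 to 35 counts per Normoxic library, which limits the precision of its fold change.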
